A study of Mus musculus with 12 samples.

Results

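Mast cells of the skin were followed through 8 genes that mark them, *Cpa3*, *Mcpt4*, *Cma1*, *Tpsb2*, *Tpsab1*, *Fcer1a*, *Ms4a2* and *Hdc*. They were picked by symbol, each matched to a single Ensembl identifier, out of 52636 genes in the table of read counts. All 8 passed the filter on low counts that left 18822 genes for testing. *Fcer1a* was the only one of them to pass the test in every comparison between groups, higher in *Cdc42* KO than in WT skin and lower in the ZnO NP-treated libraries than in the vehicle group of the same label. With each library left out in turn, its call between KO and WT held in 10 of 12 fits, and that between the treated groups in 1 of 12.

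Mast cells are long-lived tissue leukocytes that sit around vessels, nerves and hair follicles of the dermis, and they are known for the immediate allergic response. IgE bound to the high-affinity receptor FcεRI triggers release of granules that hold histamine, heparin and a store of proteases. In the mouse, the connective tissue type that populates skin carries the chymases Mcpt4 and Cma1 (mMCP-5), the tryptase Tpsb2 (mMCP-6) and carboxypeptidase A3. *Tpsab1* is the gene of a further tryptase (mMCP-7), whose protein was not measured here.

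Full-thickness dorsal skin of C57BL/6J mice (C57BL/6 and 3 months old in the labels) was sequenced after 14 days of topical application to shaved skin. There were 4 groups of 3 mice each. WT and KO mice received the vehicle alone (HPMC in normal saline), while the other two groups (WT+ZnO NPs, KO+ZnO NPs) received zinc oxide nanoparticles in it. KO mice carried *Cdc42* flox/flox alleles and Cre under the keratin K5 promoter, which deletes the gene in keratinocytes and not in mast cells, and WT mice carried 1 or 2 floxed alleles without Cre. Total counts lay between 21076320 and 28867802 per library, and levels are given as CPM (the share of a library that falls to a gene, as counts scaled to a common library size) scaled by TMM factors.

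The *Cdc42* transcript, read as a check of the labels, lay between 606 and 628 CPM in WT and between 415 and 464 CPM in KO libraries. It was between 311 and 350.1 CPM in the WT+ZnO NPs libraries, below every KO library, which goes against that label, and between 314 and 453 CPM in the KO+ZnO NPs libraries. Both treated groups are therefore named by their label, as WT-labelled or KO-labelled ZnO NP libraries. Y-linked transcripts were present in 5 libraries, the 3 labelled WT+ZnO NPs, KO replicate 1 and KO+ZnO NPs replicate 1, and the other 7 held *Xist*, although the study's methods describe the KO mice as female. Sex and ZnO NPs thus cannot be told apart within the 6 libraries labelled WT.

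The promoters of 2 receptor genes and 2 proteases are shown as the regulatory sequence of the 4 genes with the highest fold changes in KO against WT. A promoter here is the stretch from 250 bases before to 50 bases after the RefSeq start of the gene, on GRCm38.p6 and read along the gene's own strand, which is the minus strand in all 4. Capitals mark GATAA or its reverse complement TTATC, the core letters that GATA factors bind.
*Fcer1a*, chr1:173227180-173227479: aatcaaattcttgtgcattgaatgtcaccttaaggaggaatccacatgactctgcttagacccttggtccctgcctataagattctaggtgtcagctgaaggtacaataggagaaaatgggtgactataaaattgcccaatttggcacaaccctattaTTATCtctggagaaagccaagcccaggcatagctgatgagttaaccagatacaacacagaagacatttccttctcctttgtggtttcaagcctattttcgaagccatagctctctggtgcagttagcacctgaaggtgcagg
*Ms4a2*, chr19:11623670-11623969: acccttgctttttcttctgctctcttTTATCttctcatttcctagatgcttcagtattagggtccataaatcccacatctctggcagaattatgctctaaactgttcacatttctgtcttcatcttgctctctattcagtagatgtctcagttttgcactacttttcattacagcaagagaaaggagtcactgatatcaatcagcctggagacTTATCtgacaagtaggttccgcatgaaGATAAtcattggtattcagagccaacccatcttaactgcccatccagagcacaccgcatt
*Cpa3*, chr3:20242132-20242431: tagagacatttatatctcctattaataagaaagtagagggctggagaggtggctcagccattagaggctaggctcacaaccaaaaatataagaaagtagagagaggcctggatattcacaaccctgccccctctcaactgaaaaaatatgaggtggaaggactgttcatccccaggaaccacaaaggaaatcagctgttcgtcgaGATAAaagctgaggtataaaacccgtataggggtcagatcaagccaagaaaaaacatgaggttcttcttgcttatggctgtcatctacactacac
*Mcpt4*, chr14:56062261-56062560: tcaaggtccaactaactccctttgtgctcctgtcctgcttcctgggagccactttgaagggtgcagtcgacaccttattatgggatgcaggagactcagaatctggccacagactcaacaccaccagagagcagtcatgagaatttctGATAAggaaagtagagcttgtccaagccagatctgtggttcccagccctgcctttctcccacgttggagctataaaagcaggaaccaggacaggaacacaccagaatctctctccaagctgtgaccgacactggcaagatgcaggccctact
RefSeq promoters were matched for 6 of the 8 genes, and 5 of them held the letters on either strand, *Hdc* being the exception. *Ms4a2* held 3 copies and the other genes 1 each. Among all 32851 promoters of this length, 25.4% held at least 1 copy. These matches describe the letters in the window and are not evidence of binding.

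All 8 genes are protein coding on GRCm38. *Fcer1a* (ENSMUSG00000005339) lies on chromosome 1 from 173221284 to 173227214, and *Ms4a2* (ENSMUSG00000024680) on chromosome 19 from 11615523 to 11623719. *Cma1* (ENSMUSG00000022225, from 55941451 to 55944675) and *Mcpt4* (ENSMUSG00000061068, from 56059629 to 56062313) lie in the chymase locus on chromosome 14. *Tpsab1* (ENSMUSG00000024173, from 25343245 to 25345562) and *Tpsb2* (ENSMUSG00000033825, from 25366305 to 25369098) both lie on chromosome 17, on opposite strands. *Cpa3* (ENSMUSG00000001865) is on chromosome 3 from 20215620 to 20242181 and overlaps the microRNA gene *Mir7007*, and *Hdc* (ENSMUSG00000027360) is on chromosome 2 from 126593667 to 126619299. Of the 50-base stretches in its transcripts, *Mcpt4* shared 5.48% with other genes, *Cma1* 5.38%, *Ms4a2* 2.10% and *Hdc* 0.141%, and the other 4 genes shared none.

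The mast cell genes fell into an abundant and a scarce class. Per kilobase of exon, the mean level in WT was 75.2 ± 20.5 CPM for *Cma1*, 71.4 ± 26.1 CPM for *Mcpt4*, 44.7 ± 16.7 CPM for *Cpa3* and 42.0 ± 13.8 CPM for *Tpsb2* (SD, n = 3). The other genes were far lower per kilobase, at 3.24 ± 1.72 CPM for *Fcer1a*, 2.77 ± 0.393 CPM for *Hdc*, 1.88 ± 0.788 CPM for *Ms4a2* and 1.73 ± 0.884 CPM for *Tpsab1* (SD, n = 3). In this order, the ranges of neighbouring genes over the WT libraries overlapped, except between *Tpsb2* and *Fcer1a*. In KO the order began with *Mcpt4* at 217 ± 64.7 CPM per kilobase, and *Fcer1a* stood at 30.7 ± 13.1 CPM per kilobase (SD, n = 3).

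**Figure D1:**
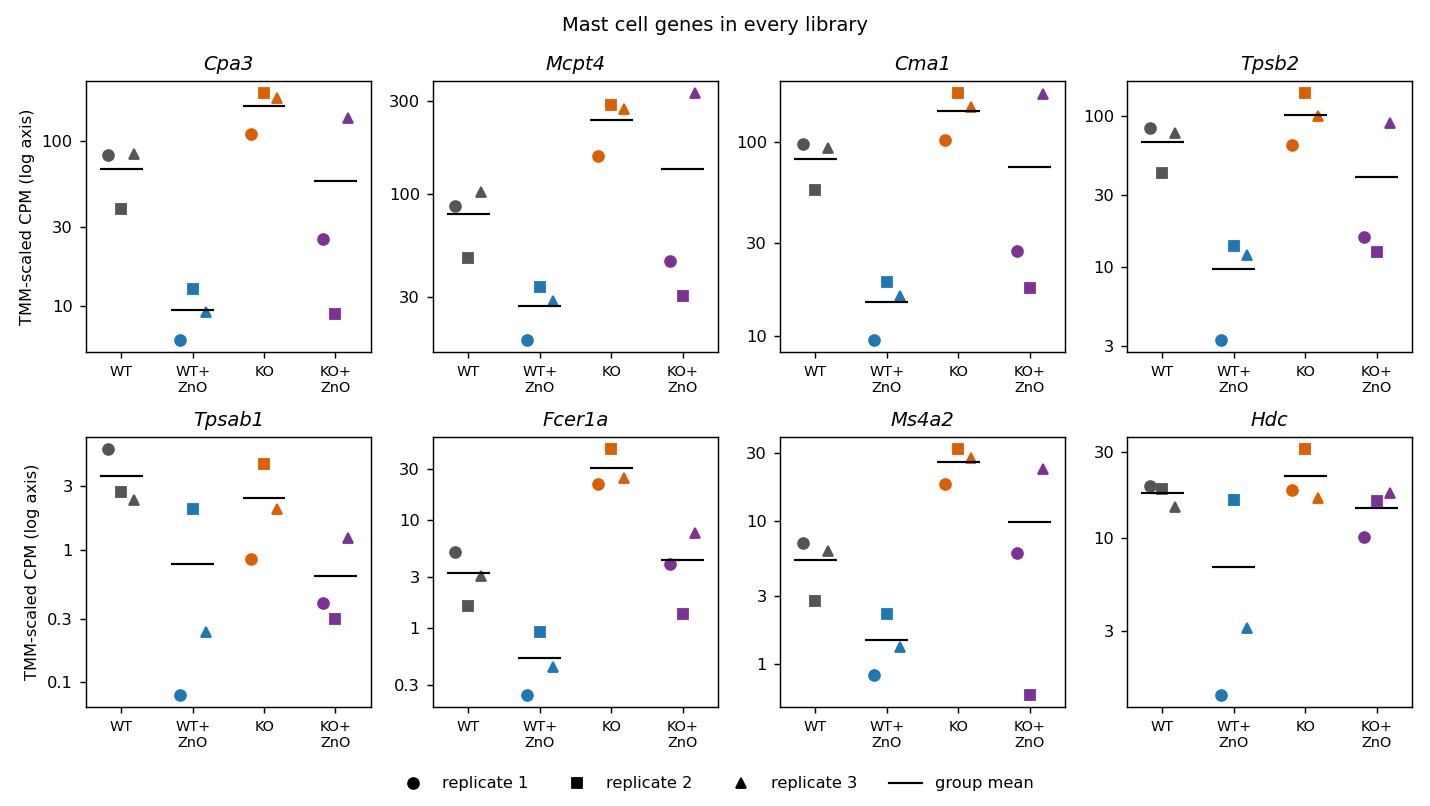
TMM-scaled CPM (log axis) of each mast cell gene in the 12 libraries, with WT+ZnO and KO+ZnO standing for the WT-labelled and the KO-labelled ZnO NP libraries. Symbols give the replicate and lines the group mean, and KO+ZnO NPs replicate 3 was the highest of its group in 8 of 8 genes.

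*Fcer1a*, the IgE-binding α chain of FcεRI, had 5.04, 1.61 and 3.06 CPM in WT and 21.6, 45.6 and 24.6 CPM in KO. All KO libraries lay above all WT libraries. The fitted level was 9.46-fold higher in KO, with a log2 fold change of 3.24 (SE 0.66) and an edgeR adjusted p of 0.0167. This call was lost without WT replicate 2 (adjusted p = 0.0828) and without WT replicate 3 (adjusted p = 0.0684). In bulk skin, a difference in the number of mast cells and a difference in the RNA of each cell cannot be told apart.

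*Fcer1a* is also carried by basophils, followed here by *Mcpt8*, *Prss34* and *Cd200r3*, the last of which mast cells also carry. *Mcpt8*, the basophil protease mMCP-8, had 1, 2 and 1 counts in WT and 77, 198 and 45 counts in KO (edgeR adjusted p = 0.00176). It had 0, 1 and 0 counts in the WT-labelled ZnO NP libraries and 2, 0 and 2 in the KO-labelled ones (edgeR adjusted p = 0.00495 against KO). *Mcpt8* was thus near 0 outside the KO group.

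*Mcpt8*, *Prss34* and *Cd200r3* together summed to 2.67 to 3.48 CPM in WT and to 8.21, 23.1 and 10.9 CPM in KO. They summed to 0.320 to 0.640 CPM in the WT-labelled ZnO NP libraries, and to 0.480, 0.151 and 3.92 CPM in the KO-labelled ones. *Prss34* had 0 counts in 3 libraries, all given ZnO NPs. KO replicate 2 was the highest library in this sum and in *Fcer1a*. The part of basophils in the level of *Fcer1a*, or of the other mast cell genes, was not tested.

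*Ms4a2*, the β chain that amplifies signalling by the same receptor, had 6.97, 2.77 and 6.12 CPM in WT and 18.2, 31.9 and 27.7 CPM in KO. The groups did not overlap, but the log2 fold change of 2.29 (SE 0.89) did not pass the threshold (edgeR adjusted p = 0.134).

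Among the proteases, *Mcpt4* had 87.4, 47.1 and 103 CPM in WT and 158, 288 and 274 CPM in KO, and *Cpa3* had 81.3, 38.5 and 83.4 CPM against 109.8, 193 and 180.1 CPM. *Cma1* had 97.0, 56.3 and 92.6 CPM in WT and 103, 178 and 150.4 CPM in KO. For these 3 genes every KO library was above every WT library, while KO replicate 2 was the highest of its group and WT replicate 2 the lowest. The log2 fold changes were 1.60 for *Mcpt4* (SE 0.75, edgeR adjusted p = 0.206), 1.25 for *Cpa3* (SE 0.76, edgeR adjusted p = 0.331) and 0.81 for *Cma1* (SE 0.69, edgeR adjusted p = 0.504), and none passed the threshold.

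The tryptases and histamine synthesis did not separate the genotypes. *Tpsb2* had 82.7, 41.8 and 76.3 CPM in WT and 64.1, 140.3 and 99.2 CPM in KO, a log2 fold change of 0.60 (SE 0.72, edgeR adjusted p = 0.651). *Tpsab1* had 5.75, 2.74 and 2.38 CPM in WT and 0.851, 4.42 and 2.03 CPM in KO, and its log2 fold change of -0.57 (SE 0.92, edgeR adjusted p = 0.748) was the only negative one. *Hdc*, which encodes histidine decarboxylase, the enzyme that makes histamine, had 19.5, 18.8 and 14.8 CPM in WT and 18.4, 31.4 and 16.8 CPM in KO (log2 fold change of 0.33, SE 0.67, edgeR adjusted p = 0.806).

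In all, 1 of 8 mast cell genes was called between KO and WT, beside 8.18% of the genes tested (4.61% higher and 3.58% lower). Groups did not overlap, with KO higher, for 5 of 8 genes, beside 18.6% of all genes tested. The median log2 fold change of the 8 genes was 1.03, and that of all genes 0.01. With KO replicate 1 left out, the only library of these groups with Y-linked transcripts, edgeR on only the 5 remaining libraries of these groups called 4 genes, beside 12.2% of all genes in that fit, and on all 6 libraries of these groups 3, beside 15.9%. They were *Fcer1a* (log2 fold change of 3.46, adjusted p = 0.0158), *Ms4a2* (2.51, adjusted p = 0.0172), *Mcpt4* (1.84, adjusted p = 0.0233) and *Cpa3* (1.47, adjusted p = 0.0405), a choice of libraries made after the data had been seen.

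**Figure D2:**
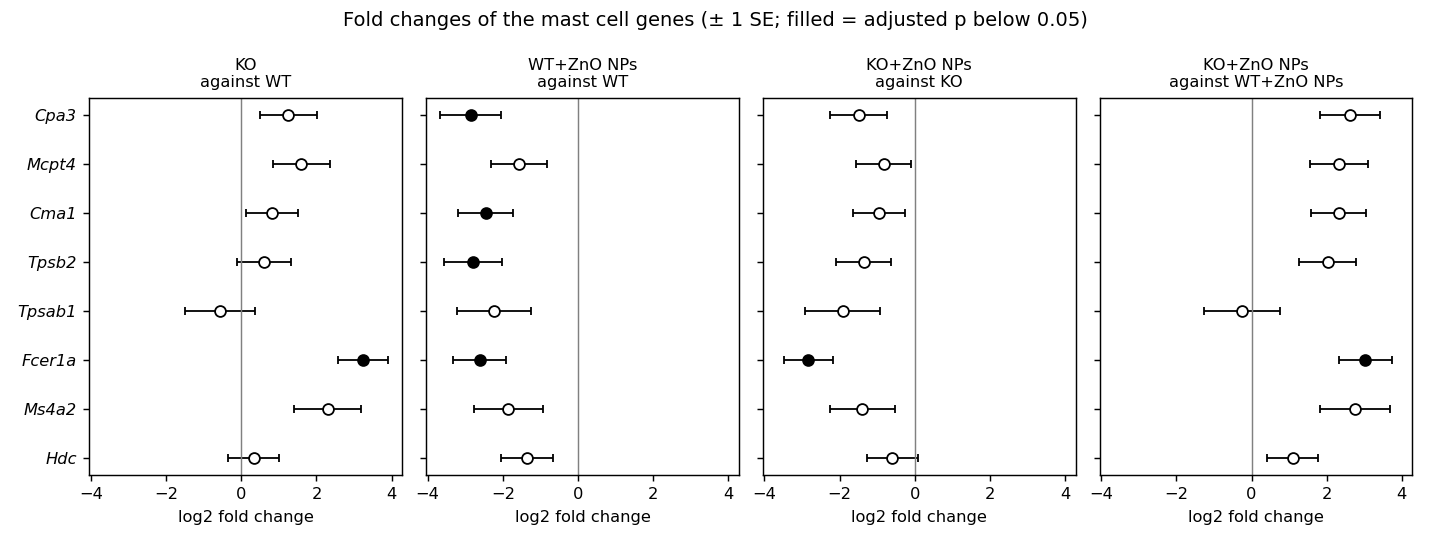
Log2 fold change of each mast cell gene in the 4 comparisons between groups, first group against second, from edgeR. Bars are ± 1 SE over 3 against 3 libraries, filled points have an adjusted p below 0.05, and *Fcer1a* is filled in all 4 panels.

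All 8 genes had lower means in the WT-labelled ZnO NP libraries than in WT. *Cpa3* was at 6.24, 12.7 and 9.22 CPM, below the lowest WT library, and fell 7.23-fold (log2 fold change of -2.85, SE 0.81, edgeR adjusted p = 0.0162). *Tpsb2* was at 3.32, 13.8 and 12.02 CPM and fell 6.88-fold (log2 fold change of -2.78, SE 0.77, edgeR adjusted p = 0.0146). *Cma1* was at 9.60, 19.0 and 16.1 CPM and fell 5.50-fold (log2 fold change of -2.46, SE 0.73, edgeR adjusted p = 0.0199). The 3 granule proteases were thus each below every WT library. The calls of *Cpa3* and *Cma1* were lost without WT+ZnO NPs replicate 1 (edgeR adjusted p = 0.0572 and 0.0681). They were also lost without replicate 3 (edgeR adjusted p = 0.0563 and 0.0594), while *Tpsb2* was called in 12 of 12 fits that left out a library.

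*Fcer1a* was at 0.240, 0.914 and 0.435 CPM in the WT-labelled ZnO NP libraries, from 6, 20 and 11 counts, and fell 6.12-fold (log2 fold change of -2.61, SE 0.70, edgeR adjusted p = 0.0125). Its log2 fold change was -3.24 without WT+ZnO NPs replicate 2, and the call was lost without replicate 3 (edgeR adjusted p = 0.0502). *Ms4a2* was at 0.840, 2.24 and 1.31 CPM (log2 fold change of -1.86, SE 0.92, edgeR adjusted p = 0.124). *Mcpt4* was at 18.1, 33.8 and 28.4 CPM (log2 fold change of -1.57, SE 0.75, edgeR adjusted p = 0.115). Neither of the latter overlapped with WT, and neither passed the threshold.

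*Tpsab1* and *Hdc* varied most among the WT-labelled ZnO NP libraries. *Tpsab1* was at 0.08, 2.01 and 0.237 CPM (log2 fold change of -2.24, SE 0.99, edgeR adjusted p = 0.0896) and *Hdc* at 1.32, 16.2 and 3.12 CPM (log2 fold change of -1.37, SE 0.69, edgeR adjusted p = 0.131). Replicate 2 was the highest of these libraries in 8 of 8 genes, and for *Hdc* it lay within the WT range. Without it both genes passed, *Tpsab1* at -4.47 (edgeR adjusted p = 0.00711) and *Hdc* at -2.99 (edgeR adjusted p = 0.000971) on the log2 scale.

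Thus 4 of 8 mast cell genes were called between these groups, all lower, where 43.0% of all genes tested were called, 20.8% higher and 22.1% lower. Groups did not overlap, with WT higher, for 7 of 8 genes, beside 29.3% of all genes. The median log2 fold change of the 8 genes was -2.35 against 0.06 over all genes. With Y-linked transcripts as a covariate, whose effect is then read from the KO groups, the lowest edgeR adjusted p of the 8 genes was 0.126 (*Fcer1a*), and the log2 fold changes lay between -2.16 (*Fcer1a*) and -0.21 (*Mcpt4*, adjusted p = 0.889). Without WT+ZnO NPs replicate 3 a single gene was called, beside 30.7% of all genes in that fit, without replicate 1 there were 2, beside 37.2%, and without replicate 2 there were 6, beside 36.6%.

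The KO-labelled ZnO NP libraries did not form one group in the mast cell genes. *Mcpt4* was at 45.5 and 30.1 CPM in replicates 1 and 2 and at 329 CPM in replicate 3, above every KO library. *Cma1* was at 27.5, 17.8 and 177 CPM, *Cpa3* at 25.3, 8.97 and 138 CPM, and *Tpsb2* at 15.9, 12.5 and 90.0 CPM. For all of these, replicates 1 and 2 were below every KO library, and for the latter 3 replicate 3 was within the KO range.

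*Ms4a2* showed the same split, with 5.93, 0.605 and 23.0 CPM. *Fcer1a* did not, with 3.93, 1.36 and 7.58 CPM, all below every KO library. It fell 7.11-fold against KO (log2 fold change of -2.83, SE 0.65, edgeR adjusted p = 0.0201). Leaving out KO replicate 2 (adjusted p = 0.0772), fitting only these 2 groups (adjusted p = 0.0612) or fitting only these 2 groups without their libraries with Y-linked transcripts (adjusted p = 0.140) ended that call, with log2 fold changes between -2.96 and -2.41.

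*Tpsab1* was at 0.393, 0.302 and 1.22 CPM and *Hdc* at 10.1, 16.0 and 17.7 CPM in the KO-labelled ZnO NP libraries, both overlapping with KO. The log2 fold changes of the 7 genes other than *Fcer1a* lay between -1.91 (*Tpsab1*, edgeR adjusted p = 0.208) and -0.60 (*Hdc*, edgeR adjusted p = 0.569). The call count was 1 of 8, beside 14.7% of all genes tested (6.57% higher and 8.09% lower), and 1 of 8 genes was separate with KO higher, beside 17.7%. Without KO+ZnO NPs replicate 3 it was 6 of 8, beside 10.4% of all genes in that fit, namely *Cma1* (-2.64, adjusted p = 0.0175), *Mcpt4* (-2.64, adjusted p = 0.0189), *Cpa3* (-3.21, adjusted p = 0.0200), *Fcer1a* (-3.50, adjusted p = 0.0232), *Tpsb2* (-2.81, adjusted p = 0.0259) and *Ms4a2* (-2.95, adjusted p = 0.0497), with values in log2.

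Between the treated groups, *Fcer1a* was 8.14-fold higher in the KO-labelled ZnO NP libraries than in the WT-labelled ones (log2 fold change of 3.03, SE 0.71, edgeR adjusted p = 0.0481), without overlap. It was the only gene of the 8 to pass, beside 3.28% of all genes tested (2.13% higher and 1.16% lower), and the only one whose groups were separate, beside 13.0%. Only 5 of 20 alternatives kept that call, 1 of them among the 12 that left out a library, with log2 fold changes from 2.32 (without KO+ZnO NPs replicate 3) to 3.65 (without WT+ZnO NPs replicate 2). *Hdc* passed without WT+ZnO NPs replicate 2 (2.72, edgeR adjusted p = 0.0294). The other log2 fold changes lay between -0.25 (*Tpsab1*, edgeR adjusted p = 0.907) and 2.76 (*Ms4a2*, edgeR adjusted p = 0.106). For *Cpa3* the value was 2.62 (edgeR adjusted p = 0.0857), and it was 0.86 without KO+ZnO NPs replicate 3.

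The interaction set the ZnO NP difference of the KO-labelled groups against that of the WT-labelled groups. In edgeR 0 of 8 genes were called, 0 had an unadjusted p below 0.05 and DESeq2 on all 12 libraries called 0 of the 6 genes to which it gave an adjusted p (not *Mcpt4* and *Hdc*), beside 8.68% of all genes tested in edgeR (5.08% positive and 3.59% negative). The interaction was smallest for *Fcer1a*, at -0.22 on the log2 scale (SE 0.97, edgeR adjusted p = 0.913), and largest for *Cma1*, at 1.51 (SE 0.98, edgeR adjusted p = 0.350). Without KO+ZnO NPs replicate 3 the sign turned for *Cpa3*, *Mcpt4*, *Cma1*, *Tpsb2*, *Tpsab1* and *Ms4a2*. Without WT+ZnO NPs replicate 2 *Hdc* passed, at 2.39 (edgeR adjusted p = 0.0357), beside 6.19% of all genes in that fit.

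The mix of mast cell transcripts was read from ratios within each library. These were chosen after the values had been seen, and as an exact permutation test of 3 against 3 libraries cannot go below p = 0.1 they are given as values only. For every 100 counts of *Mcpt4* there were 5.76, 3.43 and 2.97 counts of *Fcer1a* in WT and 13.7, 15.8 and 8.97 in KO. There were 1.33, 2.71 and 1.53 in the WT-labelled ZnO NP libraries and 8.64, 4.52 and 2.31 in the KO-labelled ones. The KO libraries were thus above all others, and KO+ZnO NPs replicate 3, which had the most *Mcpt4*, had the lowest ratio of its group.

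*Ms4a2* per 100 counts of *Cpa3* was 8.57, 7.19 and 7.34 in WT, and 16.5, 16.5 and 15.4 in KO. It was 13.5, 17.7 and 14.2 in the WT-labelled ZnO NP libraries and 23.4, 6.74 and 16.7 in the KO-labelled ones, where the value of 6.74 rests on 12 counts of *Ms4a2*. WT was below both KO and the WT-labelled ZnO NP libraries, although *Ms4a2* itself was higher in the one and lower in the other.

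Among the counts of the 8 genes, *Mcpt4* took 24.0% ± 2.56 in WT and 33.0% ± 2.12 in KO (SD, n = 3). *Tpsb2* took 20.5% ± 0.844 in WT and 13.7% ± 1.43 in KO, and *Cma1* 25.4% ± 1.31 and 19.9% ± 0.804 (SD, n = 3). In the WT-labelled ZnO NP libraries *Mcpt4* took 39.7% ± 5.99 and *Cpa3* took 13.8% ± 1.70 against 20.4% ± 1.82 in WT (SD, n = 3). Each of these pairs of groups was without overlap.

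**Figure D3:**
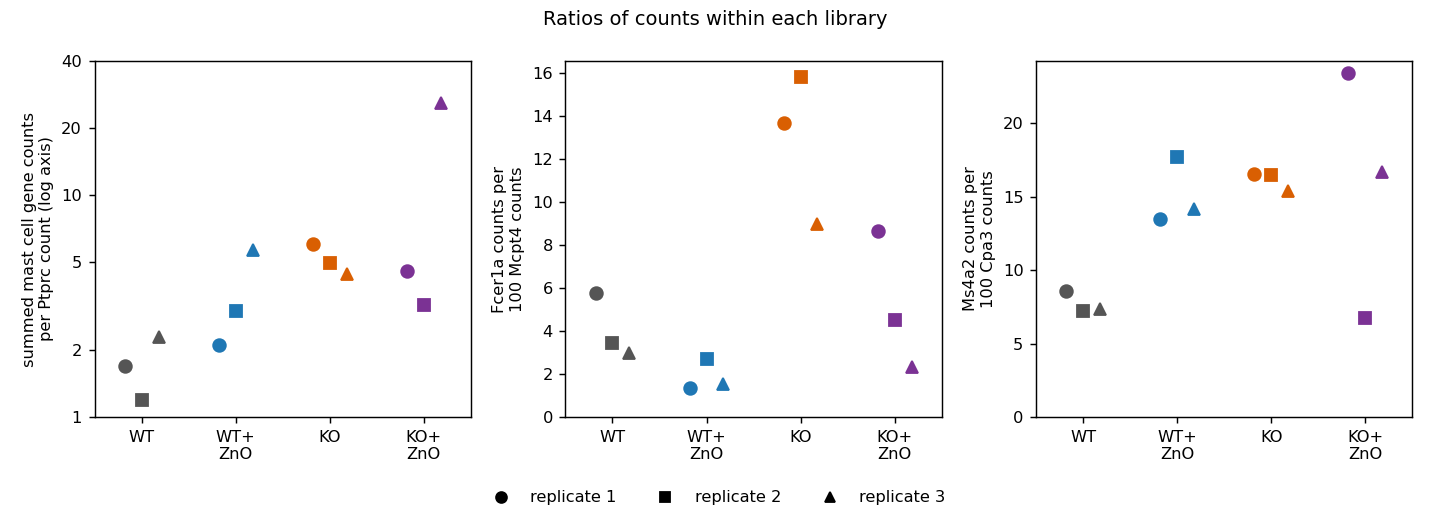
Ratios of counts within each library, by group: the summed counts of the 8 mast cell genes per count of *Ptprc* (left, log axis), *Fcer1a* per 100 counts of *Mcpt4* (middle) and *Ms4a2* per 100 counts of *Cpa3* (right). Each point is a library, symbols give the replicate, and KO+ZnO NPs replicate 3 stands at 25.8 in the left panel.

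Other genes of mast cells were taken from 6 lists. *Tph1*, the enzyme that starts serotonin synthesis in mast cells, rose in KO, from 1.97, 0.983 and 1.57 CPM to 17.5, 38.7 and 25.3 CPM (log2 fold change of 4.17, SE 0.88, edgeR adjusted p = 0.0190). It fell to 3.40, 0.252 and 6.14 CPM in the KO-labelled ZnO NP libraries (log2 fold change of -3.05, SE 0.83, edgeR adjusted p = 0.0350). *Slc18a2*, the vesicular transporter that loads monoamines into granules, rose 3.47-fold in KO (edgeR adjusted p = 0.0475). Of the list of granule storage and lipid mediators, these 2 of 13 genes rose in KO, and *Alox5ap* (log2 fold change of -1.37, edgeR adjusted p = 0.0447) and *Ltc4s* (-1.34, edgeR adjusted p = 0.0338), which serve leukotriene synthesis, fell, beside 4.61% of all genes called higher and 3.58% lower. In this list 9 of 13 genes fell in the WT-labelled ZnO NP libraries and 5 of 13 in the KO-labelled ones, each against its vehicle group, beside 22.1% and 8.09% of all genes called lower. Most of them, such as *Srgn* (-2.41 and -1.45) and *Hpgds* (-2.24 and -1.80), are also used by other leukocytes.

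Among 16 receptor and signalling genes, *Kit*, the stem cell factor receptor on which mast cells depend, rose in KO (8.35 to 14.8 CPM in WT, 43.7 to 68.2 CPM in KO, log2 fold change of 2.31, edgeR adjusted p = 0.00515). *Kit* also rose in the WT-labelled ZnO NP libraries, to 24.9, 61.9 and 59.6 CPM (log2 fold change of 2.08, edgeR adjusted p = 0.00117), where the mast cell genes were low. *Kit* is a melanocyte gene as well, and of 8 melanocyte markers 3 rose in KO, beside 4.61% of all genes, and 8 in the WT-labelled ZnO NP libraries, beside 20.8%. Their summed level was 20.6 to 46.6 CPM in WT, 53.2 to 207 CPM in KO and 409 to 1232 CPM in the WT-labelled ZnO NP libraries, and their part in the *Kit* level was not tested.

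*Mrgprb2*, the receptor for basic secretagogues, had 5.58, 5.34 and 6.80 CPM in WT, 2.72, 2.47 and 2.89 CPM in the WT-labelled ZnO NP libraries, 6.89, 12.7 and 13.8 CPM in KO and 4.19, 0.454 and 15.0 CPM in the KO-labelled ones. No comparison passed the threshold, with log2 fold changes of 0.91 in KO and -1.13 in the WT-labelled ZnO NP libraries (edgeR adjusted p = 0.503 and 0.270). The related *Mrgprb1* fell in the latter (log2 fold change of -2.46, edgeR adjusted p = 0.0323) and was not called in KO (1.56, edgeR adjusted p = 0.231).

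In the receptor and signalling list, 1 of 16 genes rose and 1 fell in KO, *Lyn* being the latter, which is near the 4.61% and 3.58% of all genes. In the WT-labelled ZnO NP libraries 12 of 16 fell and 1 rose, and in the KO-labelled ones 9 of 16 fell, beside the same 22.1% and 8.09% of all genes called lower. *Fcer1g*, the γ chain of FcεRI that many myeloid cells share, fell in both (log2 fold changes of -3.58 and -1.47, edgeR adjusted p = 5.17e-05 and 0.0182). Between KO and WT its log2 fold change of -1.01 did not pass (edgeR adjusted p = 0.0773), while the α and β chains had the opposite sign. *Il1rl1*, the IL-33 receptor, fell to 2.08, 3.75 and 1.78 CPM from 22.6 to 45.8 CPM in WT (log2 fold change of -3.84, edgeR adjusted p = 0.000680).

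*Gata2*, a transcription factor needed for mast cell identity, had 14.3 to 16.0 CPM in WT and 25.7 to 42.4 CPM in KO (log2 fold change of 1.12, edgeR adjusted p = 0.0975). It fell in the WT-labelled ZnO NP libraries to 4.67 to 7.58 CPM (-1.29, edgeR adjusted p = 0.0223). Of 8 transcription factors of the list, *Runx1* alone was called in KO (1.57, edgeR adjusted p = 0.00158), beside 4.61% of all genes called higher. In the WT-labelled ZnO NP libraries 6 of 8 fell (22.1% of all genes) and 2 rose (20.8% of all genes), and 2 of 8 fell in the KO-labelled ones (8.09% of all genes). Of the other mast cell and basophil proteases, *Mcpt1* and *Mcpt2* of mucosal mast cells had 0 to 7 and 0 to 12 counts per library and did not pass the filter, and *Tpsg1*, a membrane-bound tryptase named after its values were seen, had 1.44 to 2.35 CPM in WT and 7.15 to 9.51 CPM in KO (log2 fold change of 2.31, edgeR adjusted p = 0.0756). Of 5 tested in this list, *Mcpt8* alone rose in KO (4.61% of all genes), and in the WT-labelled ZnO NP libraries *Gzmb* fell (-2.78, edgeR adjusted p = 0.0189) and *Cma2* rose, beside 22.1% and 20.8% of all genes.

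Factors that act on mast cells were also measured. *Kitl*, the stem cell factor, fell in the WT-labelled ZnO NP libraries (log2 fold change of -0.64, edgeR adjusted p = 0.0470), and in KO its value of -0.74 did not pass (edgeR adjusted p = 0.0805). *Il33* fell in both the WT-labelled (-1.69, edgeR adjusted p = 0.00842) and the KO-labelled ones (-1.79, edgeR adjusted p = 0.0213). In this list of 10 genes, 7 of which were tested, 3 fell in the WT-labelled ZnO NP libraries and 4 in the KO-labelled ones, where 22.1% and 8.09% of all genes were called lower. Of the 4 histamine receptor and breakdown genes tested, *Hrh1*, *Hrh2* and *Hnmt* fell in the WT-labelled ZnO NP libraries, and *Hrh1* (-1.44, edgeR adjusted p = 0.0310) and *Hrh2* (-2.86, edgeR adjusted p = 0.00479) fell in the KO-labelled ones, beside 22.1% and 8.09% of all genes called lower.

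Other leukocytes were followed by their own markers. All 6 general leukocyte markers and all 8 macrophage markers fell in the WT-labelled ZnO NP libraries and in the KO-labelled ones, where 22.1% and 8.09% of all genes were called lower. Beside the same shares, 3 and 6 of 8 T cell markers fell, as did 3 and 2 of 7 neutrophil markers, and *Mpo* rose in the WT-labelled ones. The leukocyte markers summed to 1000.3 to 1426 CPM in WT, 486 to 1043 CPM in KO, 78.0 to 162 CPM in the WT-labelled ZnO NP libraries and 194 to 239 CPM in the KO-labelled ones. Between KO and WT the median log2 fold change was -0.61 for leukocyte, -0.75 for macrophage and 0.71 for neutrophil markers, and 1.11 for T cell markers, of which 3 of 8 rose (4.61% of all genes).

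Other skin cells were followed in the same way. Of 8 hair follicle markers 6 rose in KO (median log2 fold change of 10.74) and 8 in the WT-labelled ZnO NP libraries (10.54), beside 4.61% and 20.8% of all genes called higher. They summed to 4.88 to 10.1 CPM in WT, 20.4 to 11816 CPM in KO, 720 to 4424 CPM in the WT-labelled ZnO NP libraries and 184 to 8405 CPM in the KO-labelled ones. WT was thus below all other libraries in this sum. All 8 endothelial markers fell in the WT-labelled ZnO NP libraries (median log2 fold change of -1.68), beside 22.1% of all genes. Of 8 fibroblast markers 3 fell there and *Col1a1* rose (median of -0.73), beside 22.1% of all genes called lower and 20.8% higher. Of 8 adipocyte markers 5 fell there (median of -2.52), as did 5 of 7 suprabasal keratinocyte markers (-2.12). The median of the mast cell genes was -2.35. Medians were positive for basal keratinocyte (0.44), Schwann cell (0.82) and skeletal muscle markers (1.12). Between KO and WT the fibroblast median was 1.18, with 0 of 8 called by edgeR, 5 at an unadjusted p below 0.05, and 4 called by DESeq2 on all 12 libraries and 5 on only these groups, where DESeq2 called 16.4% and 25.6% of all genes. The part of these cells, and of other leukocytes, in the mast cell genes was not tested.

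**Figure D4:**
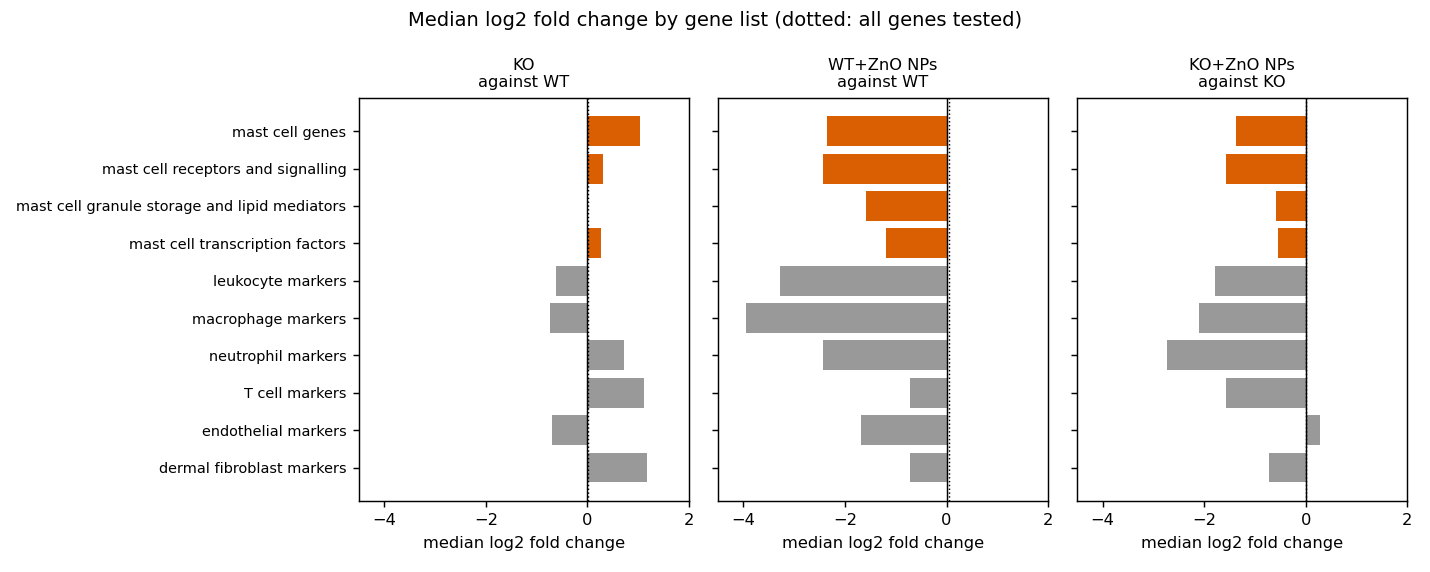
Median log2 fold change of the genes of each list shown, for mast cell lists (orange) and markers of leukocytes, endothelium and fibroblasts (grey), in 3 comparisons. The dotted line is the median of all genes tested, and in KO against WT the mast cell genes had a median of 1.03 and the macrophage markers one of -0.75.

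Set against *Ptprc* (CD45), which all leukocytes carry, the summed counts of the 8 mast cell genes were 1.70, 1.19 and 2.30 per *Ptprc* count in WT and 6.02, 4.96 and 4.41 in KO. They were 2.10, 3.00 and 5.62 in the WT-labelled ZnO NP libraries and 4.54, 3.19 and 25.8 in the KO-labelled ones. KO was above WT without overlap, and the ZnO NP-treated libraries were not below their vehicle groups except for replicate 2 of KO+ZnO NPs. The ratio also moves with *Ptprc*, which was called lower in both treated groups against their vehicle groups. KO replicate 1 had the highest ratio of its group but the lowest summed level of the 8 genes (493 CPM, against 912 and 775 CPM). This ratio was also chosen after the values had been seen. In KO+ZnO NPs replicate 3 *Ptprc* was at 30.3 CPM, close to the 29.6 and 27.5 CPM of the other replicates, so that this library stood apart in its mast cell genes and not in this leukocyte gene.

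Pearson's r between pairs of the 8 genes on log2 CPM over the 12 libraries lay between 0.591 and 0.990 with a median of 0.866. With group means removed they lay between 0.245 (*Ms4a2* with *Hdc*) and 0.993 with a median of 0.820, and *Hdc* had 0.282, 0.300 and 0.345 with *Cpa3*, *Mcpt4* and *Cma1*. *Mcpt4* and *Cma1* were among the closest pairs, with r = 0.962, and 0.993 with group means removed. *Tpsab1* and *Hdc* were the least like the others, with r = 0.745 and 0.770 to the mean of the other 7 genes. These values describe 12 libraries that share group and scaling and carry no p.

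Outside the mast cell lists, the 10 genes most like the mean z score of the 8 genes over the 12 libraries were *Gcsam* (r = 0.953), *Gfi1* (0.945), *Yipf1* (0.937), *F2rl2* (0.937), *Cd8b1* (0.936), *Il2ra* (0.936), *Atp8b5* (0.933), *Tspyl3* (0.929), *Cd200r4* (0.927) and *Nfatc4* (0.927). Over all 18761 such genes the median r was -0.02 and the 99th percentile 0.836. *Il2ra*, the α chain of the IL-2 receptor, had mean levels of 5.35 CPM in WT, 1.79 CPM in the WT-labelled ZnO NP libraries, 12.6 CPM in KO and 3.29 CPM in the KO-labelled ones.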

How the data were processed

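Full-thickness mouse skin RNA was sequenced in 12 libraries, 3 for each of 4 groups set by GEO's labels. The authors deposited raw read counts per gene, not normalised, and their processing notes name HISAT2 2.0.5 and the build mm10. The paper's methods name STAR for alignment and HTSeq for counting instead, and which of these gave the deposited counts is not known. Gene names were matched for 52403 of 52636 identifiers in GENCODE M21, and promoters were taken from RefSeq (GRCm38.p6).

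Genes were filtered with edgeR's filterByExpr (edgeR 4.0.16, R 4.3.3), scaled by TMM and fitted over all 12 libraries with 1 mean per group, which shares the estimate of the spread (common dispersion 0.109). Comparisons were tested by edgeR's quasi-likelihood F test with Benjamini-Hochberg adjustment over the 18822 genes at 0.05, and the scripts were tested on simulated data. The labels give 3 replicates per group, which the study's methods call biological replicates, and p-values measure the spread between them. Replicates differed beyond sampling noise (chi-square per degree of freedom of 37.4 to 162), so none was counted as a repeat. Levels per kilobase divide CPM by the exon length of the gene. The strand setting of the counting is not given in the sources used here. *Mir7007* lies within *Cpa3* on the same strand, so reads over it cannot be told apart.

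The genes named were the 8 mast cell genes, genes of the mast cell and histamine lists called in at least 1 of 5 comparisons with a mean of at least 1 CPM, *Kit*, *Gata2* and *Mrgprb2*, the 10 genes most like the 8, and *Cdc42*. *Ptprc*, *Tpsg1*, *Mcpt1*, *Mcpt2*, *Prss34*, *Cma2*, *Mpo* and *Col1a1* were named outside this rule, after their values were seen. The members and lists were chosen with earlier results of these data known. Alternatives were RLE or library size scaling, no filter, DESeq2 1.42.0, only the groups compared, the replicate number as a block, a Y-linked covariate and each library left out. Fitting only the groups compared without their libraries with Y-linked transcripts was added after seeing the data. Python 3.11.15 and scipy 1.17.1 were used for the summaries.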

Additional observations from a re-analysis of the deposited data

Results flagged for a closer look

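With all 12 libraries none of the 8 mast cell genes had an interaction of genotype and ZnO NPs past the threshold (*Hdc* passed at 2.39 without WT+ZnO NPs replicate 2), but 9 of the 53 genes tested in the other mast cell and histamine lists did (17.0%), by edgeR's test of that difference, beside 8.68% of all genes (5.08% positive and 3.59% negative). Positive values mean that the log2 fold change with ZnO NPs was higher in the KO-labelled than in the WT-labelled libraries. The positive ones were *Alox5ap* (2.58), the FcεRI γ chain *Fcer1g* (2.11), *Hnmt* (1.97), *Ltc4s* (1.95), *Lyn* (1.77), *Stat5a* (1.17) and *Vamp8* (0.78). The negative ones were *Kit* (-2.36) and *Runx1* (-1.73), both of which rose in the WT-labelled ZnO NP libraries. Y-linked transcripts differ between the groups of this test as well. With them as a covariate all 9 kept their sign and 0 of the 9 passed in edgeR.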

How the results depend on the processing

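Calls among the 8 mast cell genes depended on the tool and on single libraries. Between KO and WT there was 1 call, against 2 with DESeq2 on all 12 libraries, 5 with DESeq2 and 3 with edgeR on only these groups, and 4 with edgeR on only these groups without their libraries with Y-linked transcripts. Of all genes these fits called 8.18%, 16.4%, 25.6%, 15.9% and 12.2% in this order. DESeq2 on all 12 libraries gave no adjusted p to *Mcpt4* and *Hdc*, here and in the other comparisons. Between WT+ZnO NPs and WT there were 4, against 7 with DESeq2 on only these groups and 0 with the Y-linked covariate. Of all genes these fits called 8085, 9159 and 3982. Between KO+ZnO NPs and KO there was 1, against 0 with edgeR on only these groups and 0 when their libraries with Y-linked transcripts were dropped as well. Between the treated groups there was 1, against 5 with DESeq2 on all libraries, 3 with DESeq2 on only these groups, and 0 with RLE scaling, edgeR on only these groups, the replicate block or the Y-linked covariate. Of all genes DESeq2 called 2451 on all libraries and 891 on only these groups, and edgeR with RLE scaling 494, beside 618. Leaving out each library in turn gave 0 to 2, 1 to 6, 0 to 6 and 0 to 2 calls in this order, and 0 to 1 for the interaction.

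Over all genes, the calls between KO and WT (1540) were 3082 with DESeq2 on all libraries, 4511 with DESeq2 and 2794 with edgeR on only these groups, 955 with the Y-linked covariate and 377 to 2060 leaving out a library. Those between WT+ZnO NPs and WT (8085) were 3982 with that covariate and 5942 to 9095. Those between KO+ZnO NPs and KO (2759) were 4383 with DESeq2 on all libraries, 571 with edgeR on only these groups, 0 when their libraries with Y-linked transcripts were dropped as well, and 451 to 3195. Those between the treated groups (618) were 2451 with DESeq2 on all libraries, 0 with edgeR on only these groups, 284 with no filter, 1 with the covariate and 1 to 1609. For the interaction (1633) they were 3217, 1086 with no filter, 140 with the covariate and 461 to 1646. *Cdc42* between KO and WT passed with library size only (-0.49), DESeq2 on all libraries (-0.50), and DESeq2 (-0.47) or edgeR (-0.47) on only these groups, and ranged from -0.52 to -0.45 leaving out a library.

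Reversed values were all short of the threshold. With the Y-linked covariate the interaction was -0.81 for *Mcpt4*, -0.9996 for *Tpsab1* and -0.41 for *Ms4a2*. Leaving out a library, the interaction ranged from -0.39 to 1.84 for *Cpa3*, -1.12 to 1.18 for *Mcpt4*, -0.23 to 1.94 for *Cma1*, -0.070 to 1.82 for *Tpsb2*, -1.14 to 0.99 for *Ms4a2*, -0.57 to 2.56 for *Tpsab1* and -0.93 to 0.41 for *Fcer1a*, the lowest of each of these being that without KO+ZnO NPs replicate 3, and from 0.28 to 2.39 for *Hdc*. *Tpsab1* between the treated groups ranged from -1.13 to 1.98. The cause was not tested. Library size scaling moved the median of all genes between WT+ZnO NPs and WT to 0.16.

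Same-numbered libraries of different groups had correlations of their deviations between -0.343 and 0.429, with 4 of 18 over 0.1 and 8 of 18 best with their own number, so the numbers were not taken as pairs. With the replicate block the mast cell calls were 1, 5, 1, 0 and 0 over the 5 comparisons. Of all genes 1239, 8079, 2598, 626 and 1429 were called there. With this block *Tpsab1* between the treated groups was 0.25 and the interaction of *Ms4a2* was -0.00047. *Tpsab1* had as few as 2 counts in a library, and each group had 3 libraries.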
